A study of Mus musculus with 6 samples.

Results

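Complement is a cascade of plasma proteins, lectins, regulators and receptors, and 33 gene names of this system were looked up on arrays of mouse liver RNA. C1s and C1s1 name the same gene, which leaves 32 genes. A gene counted as measured where a probe set of the array named it and no other gene, and 26 of the 32 were measured, out of 12393 genes in all. C4a and C4b were named only by a probe set that they share, and C1rl, C3, C7 and Cfd were not analysed here. No filter on low values was applied, so all 26 were tested. The genes were chosen by name and not by their values, but with earlier results of these data known.

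The 3 transgenic livers came from mice with a conditional allele that overexpresses Tcfeb (now Tfeb), a transcription factor of lysosome and autophagy genes, crossed to the Alb-Cre line, in which the albumin promoter drives Cre recombinase in liver cells. The 3 wild-type livers served as controls, and the labels do not say whether these mice carried either allele. All animals were at postnatal day 9, with 1 array per animal and no strain given. Values are log2 expression on the scale the authors deposited, differences are transgenic minus wild type, and a gene is called where its p-value, adjusted over all 12393 genes, is under 0.05.

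Complement tags microbes and damaged cells, recruits leukocytes and can punch pores in membranes. It is started by C1 on antibodies (the classical pathway), by mannose-binding lectins and ficolins on sugars (the lectin pathway) or by slow spontaneous turnover of C3 (the alternative pathway), and all 3 routes meet at C3 and end in a pore built from C5 to C9. Hepatocytes make most of the plasma components, whereas properdin, C1q and the receptors come largely from leukocytes.

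Most of the measured complement genes were lower in transgenic liver, and the gene for clusterin, Clu, was the only 1 of them called higher. Of the 26 genes, 18 fell, 1 rose and 7 were not called, against 20.4% of all genes called lower and 19.9% called higher. In either direction 19 of the 26 were called, against 40.3% of all genes. The median difference was -0.48 for the 26 genes and -0.04 for all genes. In 18 of the 26 every transgenic array read below every wild-type array, against 28.1% of all genes, and for Clu every transgenic array read above, against 25.6%. A fall of at least 2-fold was called for 4 of them, C8g, Mbl1, C8a and Masp1, against 2.65% of all genes. For Masp1 this held only on its brightest probe set. A rise of at least 2-fold was called for Clu, against 2.53% of all genes. Of the 26, 19 lay among the brightest 20% of genes, and 14 of those 19 fell, against 25.3% of all genes that bright, while 1 rose, against 30.6%.

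The groups are named as labelled. Tfeb itself read 6.52, 6.61 and 6.36 on the transgenic arrays, against 6.91, 6.63 and 6.58 on the wild-type arrays, so its probe set showed no overexpression (difference -0.21, adjusted p = 0.168). The labels do not say which part of the transcript the transgene carries, so whether this probe set can read it is unknown. Transgenic replicate 1 stood apart from the other 5 arrays in sex-linked transcripts, with Xist at 5.58 against 13.03 to 13.19 elsewhere and the Y-linked gene Eif2s3y at 9.32 against 3.06 to 3.43. Without that array 17 complement genes fell and Clu rose, C6 being the call that was lost. Bacterial RNAs added as hybridisation controls read lower on every transgenic array than on any wild-type array in 14 of 14 probe sets, with a median difference of -0.37. With arrays scaled to those controls the median of all genes was 0.33, and 7 complement genes were called higher and 9 lower, against 56.6% of all genes called higher and 5.25% called lower on that scale. The 9 called lower on both scales were C1ra, Cfp, Hc, C8a, C8b, C8g, Masp1, Mbl1 and Mbl2. Directions here are relative to the deposited scale.

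**Figure D1:**
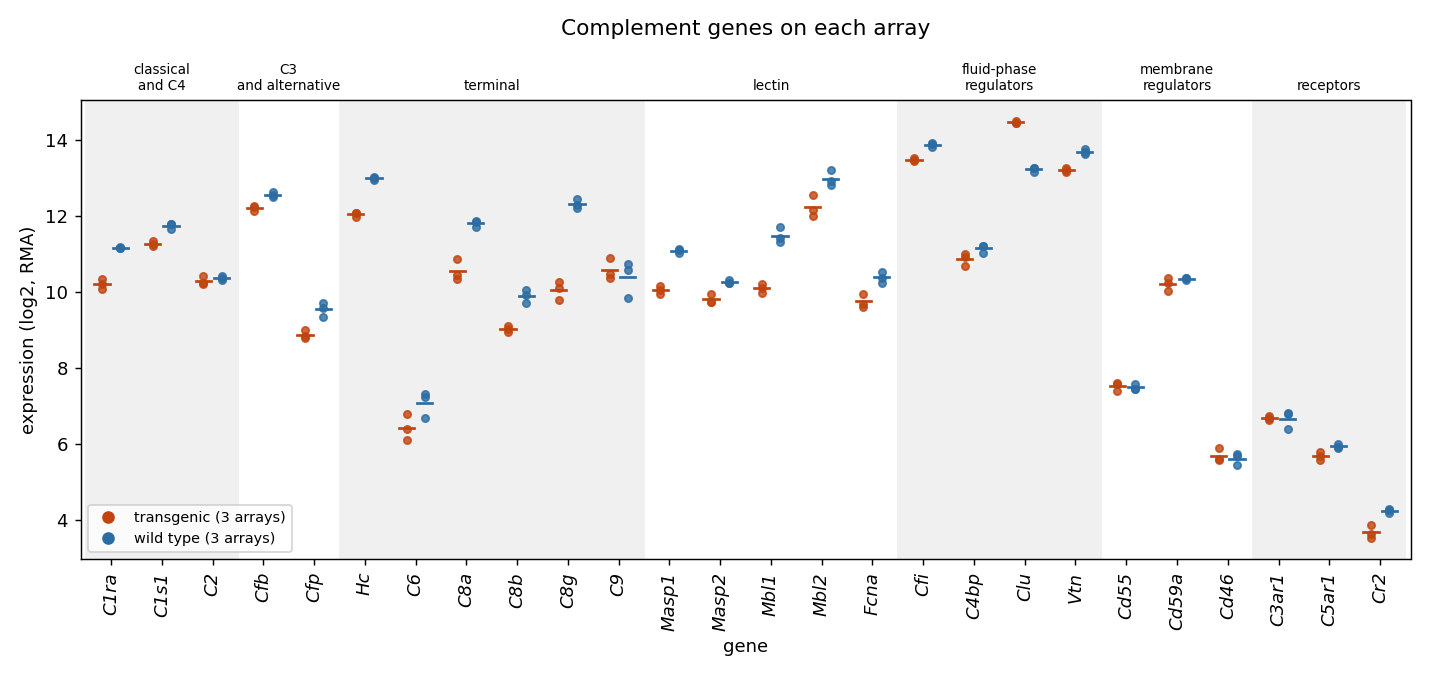
Log2 expression (vertical axis) of the 26 measured complement genes, in bands by role, with a point per array and a bar at each group's mean. Transgenic points lie below wild-type points for most plasma components, from C1ra to Mbl2, and above them for Clu, whereas the groups overlap for the 3 membrane regulators.

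Promoters of the 5 genes with the largest differences among those in the RefSeq promoter table are shown because most of the plasma components moved together. Each stretch runs from 250 bases before to 50 bases after an annotated start on build GRCm38.p6, 5′ to 3′ along the gene. The table held 23 promoters for 21 of the 26 genes, and C2, Cfb, Cfi, Clu and Masp1 had none. Searched on both strands were CACGTG, the core of the CLEAR element to which TFEB binds, GTTAAT, the core of the motif of the hepatocyte factor HNF1, TTGCNNAA for C/EBP factors and CAAAGTCCA for HNF4. Capitals mark GTTAAT or TTGCNNAA on either strand, and no matches of different motifs overlapped. C8g, which has 2 annotated starts, is on the minus strand at chr2:25501670-25501969 (start A) and chr2:25500457-25500756 (start B). Hc is on the minus strand at chr2:35061363-35061662, C8a on the minus strand at chr4:104876349-104876648, C1ra on the plus strand at chr6:124512371-124512670 and Mbl1 on the plus strand at chr14:41151206-41151505.
C8g start A: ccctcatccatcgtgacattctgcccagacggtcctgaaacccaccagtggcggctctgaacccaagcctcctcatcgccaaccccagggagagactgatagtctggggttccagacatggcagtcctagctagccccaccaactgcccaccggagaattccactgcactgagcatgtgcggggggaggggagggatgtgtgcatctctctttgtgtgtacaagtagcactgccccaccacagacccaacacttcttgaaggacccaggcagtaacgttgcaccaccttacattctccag
C8g start B: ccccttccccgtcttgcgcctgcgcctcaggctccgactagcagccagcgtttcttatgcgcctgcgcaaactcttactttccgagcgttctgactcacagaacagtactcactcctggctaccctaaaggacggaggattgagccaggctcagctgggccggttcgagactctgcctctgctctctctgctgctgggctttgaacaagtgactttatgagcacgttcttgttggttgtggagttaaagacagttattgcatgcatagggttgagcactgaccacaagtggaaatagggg
Mbl1: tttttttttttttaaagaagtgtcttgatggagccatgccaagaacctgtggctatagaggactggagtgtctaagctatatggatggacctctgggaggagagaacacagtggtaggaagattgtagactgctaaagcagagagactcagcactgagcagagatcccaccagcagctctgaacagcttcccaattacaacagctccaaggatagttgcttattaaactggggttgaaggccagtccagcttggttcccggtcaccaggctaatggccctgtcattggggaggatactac
C8a: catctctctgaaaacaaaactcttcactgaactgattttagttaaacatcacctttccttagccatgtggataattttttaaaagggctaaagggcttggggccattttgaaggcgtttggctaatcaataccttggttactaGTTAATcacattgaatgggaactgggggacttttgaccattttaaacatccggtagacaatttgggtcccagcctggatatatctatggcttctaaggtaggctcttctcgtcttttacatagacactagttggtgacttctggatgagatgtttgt
C1ra: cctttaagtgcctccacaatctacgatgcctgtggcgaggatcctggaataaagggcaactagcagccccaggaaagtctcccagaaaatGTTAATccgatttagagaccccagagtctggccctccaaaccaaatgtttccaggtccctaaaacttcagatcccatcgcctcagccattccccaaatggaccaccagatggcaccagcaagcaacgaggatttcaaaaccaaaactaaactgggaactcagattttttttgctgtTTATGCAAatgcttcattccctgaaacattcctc
Hc: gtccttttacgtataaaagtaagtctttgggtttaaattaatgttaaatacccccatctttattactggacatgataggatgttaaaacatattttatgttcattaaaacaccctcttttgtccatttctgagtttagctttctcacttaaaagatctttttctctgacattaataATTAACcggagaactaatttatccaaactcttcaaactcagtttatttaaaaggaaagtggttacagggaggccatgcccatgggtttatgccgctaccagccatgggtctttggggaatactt

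CACGTG was in 0 of the 21 genes' promoters, against 7.15% of the 32851 promoters in the table, and CAAAGTCCA was in 0 of them, against 0.475%. GTTAAT was in the promoters of 9 of the 21 genes, C1ra, C4bp, C8a, C8b, Cd55, Cfp, Cr2, Hc and Vtn, against 7.1% of all promoters. Of these 9 genes 7 fell, and of the 12 without it 8 fell. TTGCNNAA was in 3 (C1ra, C1s1 and C9), against 10.8%. These are matches of letters within 300 bases, not measured binding.

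The proteases of C1 fell, and C2 was not called. C1ra, whose product activates C1s inside the C1 complex, read 10.21, 10.07 and 10.33 on the transgenic arrays, against 11.14, 11.14 and 11.17 on the wild-type arrays. The groups lay far apart relative to their spread, and C1ra fell by 0.95 (SE 0.08, adjusted p = 0.000104), a 1.93-fold lower level. C1s1, whose protease cleaves C4 and C2, averaged 11.26 ± 0.05 in transgenic and 11.73 ± 0.08 in wild-type liver (SD, n = 3 each) and fell by 0.47 (adjusted p = 0.00168). C2, the protease part of the classical and lectin C3 convertase, averaged 10.28 ± 0.12 in transgenic and 10.37 ± 0.05 in wild-type liver, with a 95% interval of the difference of -0.28 to 0.09.

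In the alternative pathway both measured genes fell. Cfp encodes properdin, which stabilises the alternative C3 convertase and is made largely by myeloid cells. It read 8.83, 8.77 and 8.98 in transgenic liver, against 9.34, 9.57 and 9.70 in wild-type liver. No transgenic array reached the wild-type range, and Cfp fell by 0.67 (SE 0.11, adjusted p = 0.00215). Cfb, the protease of the alternative convertase, averaged 12.20 ± 0.06 in transgenic and 12.55 ± 0.07 in wild-type liver and fell by 0.35 (adjusted p = 0.00681), but with scaling to the bacterial controls its difference was 0.02. Cfb and C2 are neighbours on chromosome 17 with 0 protein-coding genes between them.

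The terminal components, which build the membrane pore, held the largest fall of the 26. C8g, the lipocalin subunit of C8, read 10.25, 9.78 and 10.10 on the transgenic arrays, against 12.43, 12.29 and 12.19 on the wild-type arrays. No array came near the other group, and C8g fell by 2.26 (SE 0.13, adjusted p = 1.86e-05), a 4.79-fold lower level. The pore-forming subunit gene C8a read 10.87, 10.34 and 10.43 in transgenic liver, against 11.71, 11.84 and 11.86 in wild-type liver. C8a thus had its highest transgenic value well under its lowest wild-type value, and it fell by 1.26 (SE 0.14, adjusted p = 0.000356). Its neighbour on chromosome 4, the subunit gene C8b, read 9.09, 8.95 and 9.03 in transgenic liver, against 10.05, 9.90 and 9.70 in wild-type liver. C8b fell by 0.86 (SE 0.10, adjusted p = 0.000423), again with no overlap.

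Hc encodes C5, whose cleavage starts pore assembly and frees an anaphylatoxin. It read 12.07, 11.96 and 12.07 on the transgenic arrays, against 13.02, 12.98 and 12.94 on the wild-type arrays. The arrays of each group lay within a narrow range, and Hc fell by 0.94 (SE 0.07, adjusted p = 5.1e-05). C6, which joins the growing pore after C5, was dim and read 6.40, 6.11 and 6.77 in transgenic liver, against 6.69, 7.24 and 7.30 in wild-type liver. The groups overlapped, because transgenic replicate 3 read above wild-type replicate 1. C6 fell by 0.65 (SE 0.21, adjusted p = 0.0388), a call lost without transgenic replicate 1 (adjusted p = 0.0908), transgenic replicate 2 (0.115), wild-type replicate 2 (0.115) or wild-type replicate 3 (0.11). C9, whose copies line the pore, was not called, at 10.57 ± 0.28 in transgenic and 10.38 ± 0.48 in wild-type liver, with a 95% interval of the difference of -0.36 to 0.75.

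All 5 measured lectin pathway genes fell. Mbl1, mannose-binding lectin A, read 10.20, 9.96 and 10.10 on the transgenic arrays, against 11.70, 11.42 and 11.31 on the wild-type arrays. The groups did not overlap, and Mbl1 fell by 1.39 (SE 0.11, adjusted p = 9.55e-05), a 2.62-fold lower level. Mbl2, mannose-binding lectin C, read 11.98, 12.14 and 12.54 in transgenic liver, against 13.20, 12.81 and 12.92 in wild-type liver. The transgenic arrays were more spread for Mbl2 than for Mbl1 (SD 0.29 against 0.12), and the wild-type arrays were equally spread (SD 0.2 each). The groups of Mbl2 did not overlap, and Mbl2 fell by 0.76 (SE 0.16, adjusted p = 0.00793). Fcna encodes ficolin A, a sugar-binding lectin found in mouse macrophages as well as in plasma. It read 9.95, 9.60 and 9.68 in transgenic liver, against 10.23, 10.53 and 10.37 in wild-type liver. All transgenic values of Fcna were lower, and it fell by 0.63 (SE 0.12, adjusted p = 0.00422).

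Masp1 and Masp2 encode the proteases that travel with these lectins. Masp1 read 10.16, 9.94 and 10.05 on the transgenic arrays, against 11.10, 11.01 and 11.11 on the wild-type arrays. Masp1 fell by 1.03 (SE 0.08, adjusted p = 6.81e-05) on its brightest probe set, and the other 4 Masp1 probe sets gave differences of -0.31, -0.32, -0.13 and -0.24, of which the third was not called. With the mean of all probe sets of the gene, Masp1 fell by 0.41 (adjusted p = 0.00245). Masp2 averaged 9.80 ± 0.13 in transgenic and 10.25 ± 0.05 in wild-type liver and fell by 0.45 (adjusted p = 0.00421), with a difference of -0.60 on its second probe set.

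Among the plasma regulators Clu went the other way. Clusterin, a secreted chaperone, binds the terminal complex and keeps it from inserting into membranes. Clu read 14.44, 14.44 and 14.49 on the transgenic arrays, against 13.24, 13.25 and 13.16 on the wild-type arrays. No array of either group came near the other, and Clu rose by 1.24 (SE 0.06, adjusted p = 1.37e-05). These readings are close to the brightest on the arrays, where differences can be compressed, so the measured rise is read only as at least 2-fold. The other 3 Clu probe sets rose by 1.10, 1.13 and 1.67, the last being the dimmest of the 4.

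The other plasma regulators were lower or not called. Vtn, vitronectin, which also binds the terminal complex, averaged 13.20 ± 0.05 in transgenic and 13.68 ± 0.06 in wild-type liver and fell by 0.48 (adjusted p = 0.0011), with a difference of -1.10 on its second, less bright probe set. Cfi, the protease that inactivates C3b and C4b, averaged 13.47 ± 0.03 in transgenic and 13.87 ± 0.06 in wild-type liver and fell by 0.40 (adjusted p = 0.00254). The readings of Cfi and of the brighter Vtn probe set lie in the same range as those of Clu, where differences can be compressed. C4bp, a cofactor of that protease, averaged 10.86 ± 0.16 in transgenic and 11.14 ± 0.12 in wild-type liver. The groups of C4bp did not overlap, but its difference of -0.28 was not called (adjusted p = 0.0598, and 0.0266 to 0.522 over the alternatives).

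**Figure D2:**
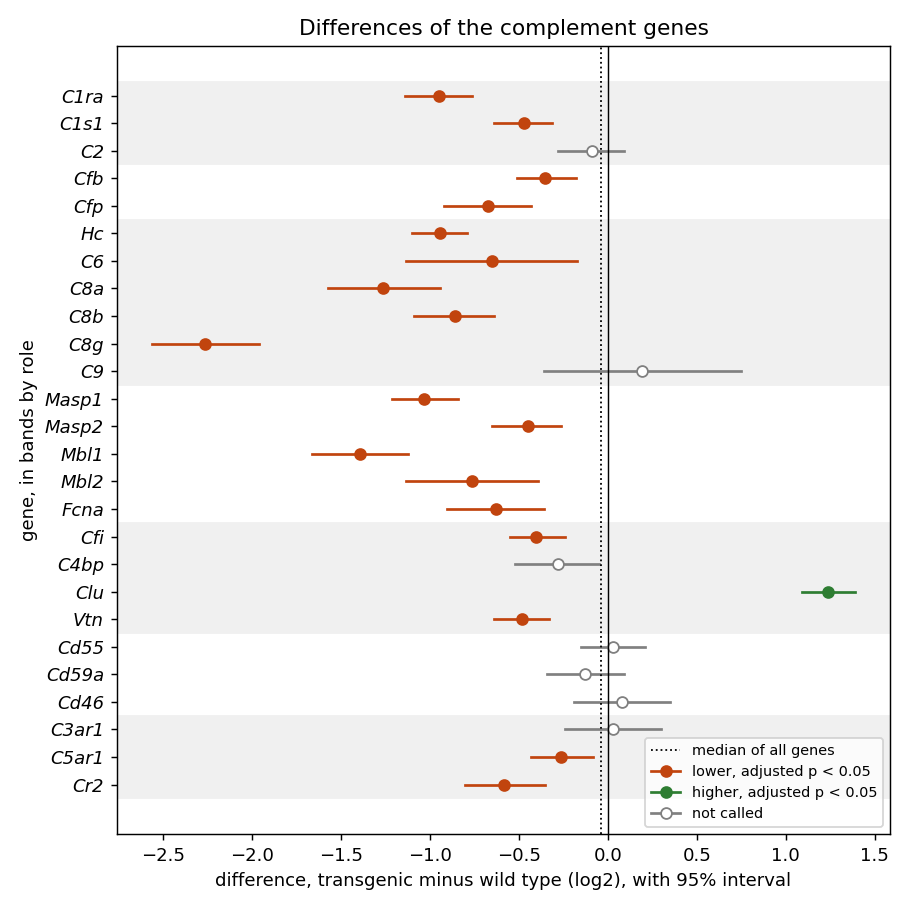
Difference between transgenic and wild-type liver (log2, horizontal axis) for each complement gene, with its 95% interval, filled where adjusted p is under 0.05. C8g lies farthest to the left at -2.26, Clu is the gene called higher at 1.24, and the dotted line marks the median of all genes at -0.04.

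The membrane regulators, which protect the body's own cells, were not called. Cd59a, whose product blocks C9 in the pore, had the largest difference of the 3 and read 10.03, 10.24 and 10.36 in transgenic liver, against 10.35, 10.36 and 10.30 in wild-type liver. The groups overlapped, and the 95% interval of its difference was -0.34 to 0.09. Cd55, which speeds the decay of C3 convertases, averaged 7.52 ± 0.10 in transgenic and 7.48 ± 0.07 in wild-type liver, with an interval of -0.15 to 0.21. Cd46, a cofactor for cleavage of C3b that in mice is made mainly in testis, was dim at 5.69 ± 0.19 in transgenic and 5.61 ± 0.16 in wild-type liver, with an interval of -0.19 to 0.35.

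Of the receptors, the complement receptor gene Cr2 of B cells was called lower at very dim readings. Cr2 read 3.63, 3.86 and 3.51 on the transgenic arrays, against 4.25, 4.28 and 4.19 on the wild-type arrays, and fell by 0.58 (SE 0.10, adjusted p = 0.00293). Only 9.87% of genes were as dim or dimmer, and the files hold no detection calls. C5ar1, the receptor of the C5 anaphylatoxin on myeloid cells, averaged 5.68 ± 0.09 in transgenic and 5.94 ± 0.06 in wild-type liver. It was dim too, with 30.2% of genes as dim or dimmer, and fell by 0.26 (adjusted p = 0.0283). That call was lost without transgenic replicate 2 (adjusted p = 0.0975), transgenic replicate 3 (0.0678), wild-type replicate 1 (0.0653) or wild-type replicate 2 (0.0649), and with quantile normalization again (0.0569) or cyclic loess (0.1). Its difference was 0.11 with scaling to the bacterial controls. C3ar1, the receptor of the C3 anaphylatoxin, was not called at 6.69 ± 0.06 in transgenic and 6.66 ± 0.23 in wild-type liver, and its second probe set differed by -0.35, also not called.

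Markers of several cell types differed between the same groups, and their part in the results was not tested. Their counts stand against 20.4% of all genes called lower and 19.9% called higher. Of 7 B cell markers 7 fell, their mean level being 5.64 to 5.84 on the transgenic arrays and 6.74 to 7.59 on the wild-type arrays. Of 11 granulocyte markers 9 fell, with a mean level of 6.93 to 7.62 in transgenic and 8.33 to 9.30 in wild-type liver. Of 11 Kupffer cell and macrophage markers 3 fell (Adgre1, Marco and Cd163), a share of 27.3% that is near that of all genes, with overlapping mean levels of 9.92 to 10.26 in transgenic and 10.16 to 10.55 in wild-type liver. In bulk RNA, fewer cells of a type and less RNA per cell cannot be told apart.

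Hepatocyte markers fell for 8 of 11, with a mean level of 12.40 to 12.49 in transgenic and 13.29 to 13.33 in wild-type liver. Their differences were uneven, with a median of -0.57 and a range from -3.58 (Tdo2) to 0 (Alb). Albumin itself read 14.87 ± 0.01 in transgenic and 14.87 ± 0.03 in wild-type liver, among the brightest values of the arrays, as liver RNA would give. At such readings differences can be compressed, so 0 for Alb does not show an unchanged level. Ttr, Apoa1, Ahsg and Serpina1c, with wild-type means of 14.5 to 14.8, differed by -0.03 to -0.31. Cholangiocyte markers rose for 4 of 6, Sox9 by 2.22, Epcam by 1.94, Krt7 by 1.15 and Cd24a by 0.69. Krt19 (-0.27) and Cftr (0.38) were not called, and their groups overlapped. Erythroid precursor markers rose for 3 of 7 and fell for 0. Of 12 stellate and mesothelial markers 1 rose and 5 fell, of 8 endothelial markers 1 rose and 4 fell, and of 5 adipocyte markers 1 rose and 2 fell.

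**Figure D3:**
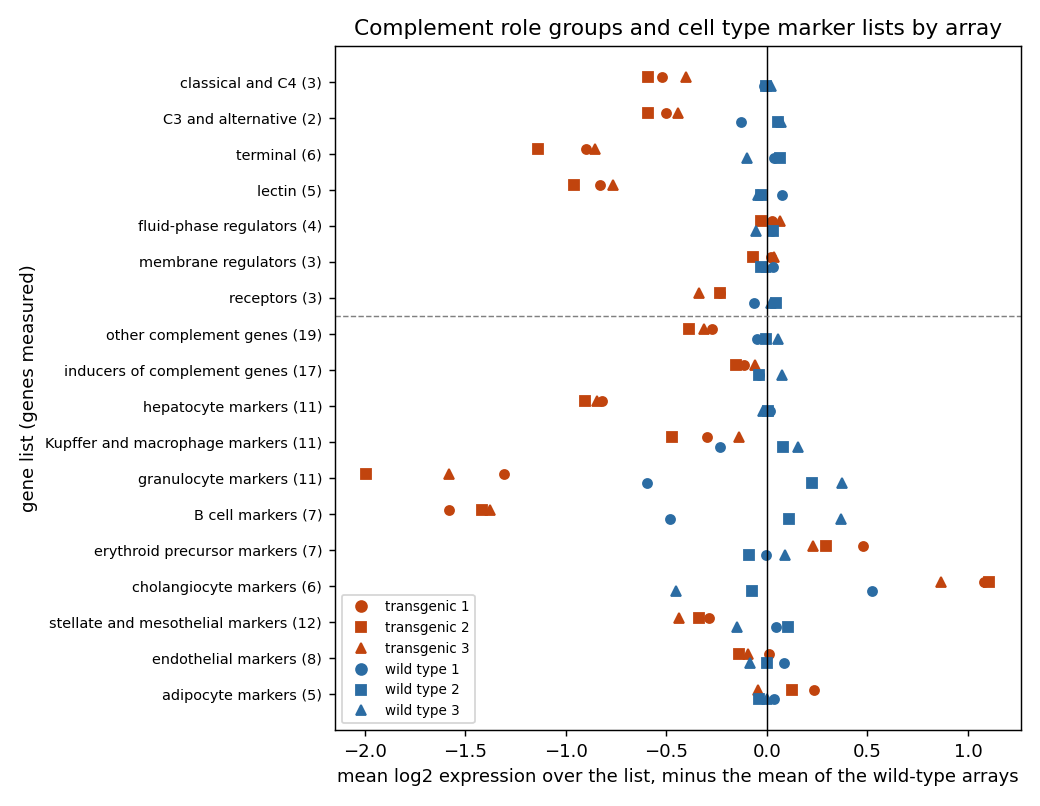
Mean log2 expression over each gene list on each array, minus the mean of the wild-type arrays (horizontal axis), with the complement role groups above the dashed line and other lists below it. The terminal and lectin groups sit to the left on all 3 transgenic arrays, as do the hepatocyte, granulocyte and B cell markers, whereas the fluid-phase regulators, which include Clu, and the membrane regulators lie around 0.

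Related complement genes were also set against each other in pairs. The log2 difference between genes of a pair was computed within each array for 8 pairs. Exact permutation tests over 3 against 3 arrays cannot give a p below 0.1, so no pair could be called unequal. How often other gene pairs fail to overlap between groups was not counted. C8g minus C8a was -0.63 to -0.33 on the transgenic arrays and 0.33 to 0.72 on the wild-type arrays, a difference of changes of -1.01 (exact two-sided p = 0.1, adjusted 0.13 over 8 pairs). C8g against C8b gave a difference of changes of -1.40, Masp1 against Masp2 on their brightest probe sets gave -0.57, Mbl1 against Mbl2 gave -0.63, C1ra against C1s1 gave -0.48 and Cfb against C2 gave -0.26, each with groups that did not overlap and the same exact p. C8a against C8b (-0.39) and C6 against C9 (-0.84) overlapped between groups (exact p = 0.2 each). Each gene was read by its own probe set, and probe sets of 1 gene can differ too, as those of Vtn did at -0.48 and -1.10. With the mean of each gene's probe sets Masp1 differed by -0.41 and Masp2 by -0.52, so that the order of those 2 genes turned.

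**Figure D4:**
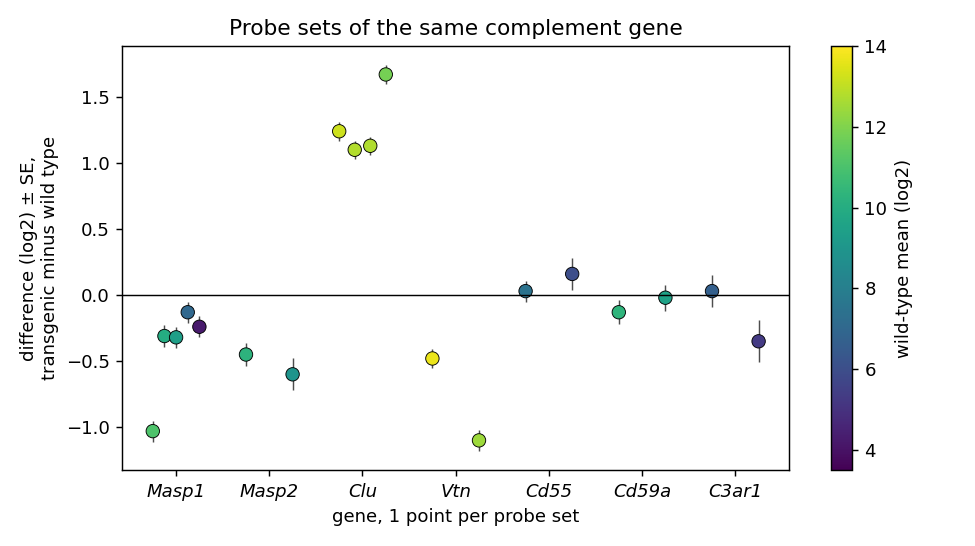
Difference between transgenic and wild-type liver (log2 ± SE, vertical axis) for every probe set of the 7 complement genes that have several, coloured by the wild-type mean. The 4 Clu probe sets lie between 1.10 and 1.67, both Vtn probe sets lie below 0 at -0.48 and -1.10, and the 5 Masp1 probe sets range from -1.03 to -0.13.

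Of 29 other genes of the complement system, 19 were measured, of which 8 fell, 1 rose and 10 were not called, with a median difference of -0.28. The share that fell was 42.1%, against 20.4% of all genes. Susd4, an inhibitor of complement activation, fell by 1.42 (adjusted p = 0.00115) and Cfhr2, related to factor H, fell by 1.11 (adjusted p = 8.08e-05). The C1 inhibitor gene Serping1 averaged 11.68 ± 0.06 in transgenic and 12.49 ± 0.02 in wild-type liver and fell by 0.81. Carboxypeptidase N, which inactivates the anaphylatoxins, was lower in both subunit genes, with Cpn2 at -0.95 and Cpn1 at -0.44. C1qa fell by 0.43 and C1qc fell by 0.42, both chains of the macrophage product C1q, and C1qb was not called at -0.22. C1qbp, which binds C1q and resides mainly in mitochondria, was the gene that rose, by 0.43 (adjusted p = 0.00248). With scaling to the bacterial controls 7 of the 19 were higher and 4 lower, against 56.6% and 5.25% of all genes.

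Of 17 measured genes linked to the control of complement transcription, 5 fell, 3 rose and 9 were not called, with a median difference of -0.05. This inducer list holds factors and receptors that can drive it, and also the signal inhibitors Socs3 and Nfkbia. These shares are near the 20.4% and 19.9% of all genes called lower and higher, so the genes below are given as single values. The interleukin-6 receptor gene Il6ra fell by 1.12 (adjusted p = 0.000335), the liver transcription factor gene Cebpa by 0.80, the bile acid receptor gene Nr1h4 by 0.51, Hnf4a by 0.33 and the interleukin-1 receptor gene Il1r1 by 0.25. Socs3, a feedback inhibitor induced by interleukin-6, rose by 0.66 (adjusted p = 0.0258), the NF-kB subunit gene Rela by 0.34 and Il6st, the signalling partner of Il6ra, by 0.23. Stat3, which carries the interleukin-6 signal, was not called at 10.34 ± 0.05 in transgenic and 10.35 ± 0.11 in wild-type liver, and neither were Irf1 (0.03) and Cebpb (-0.09).

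**Figure D5:**
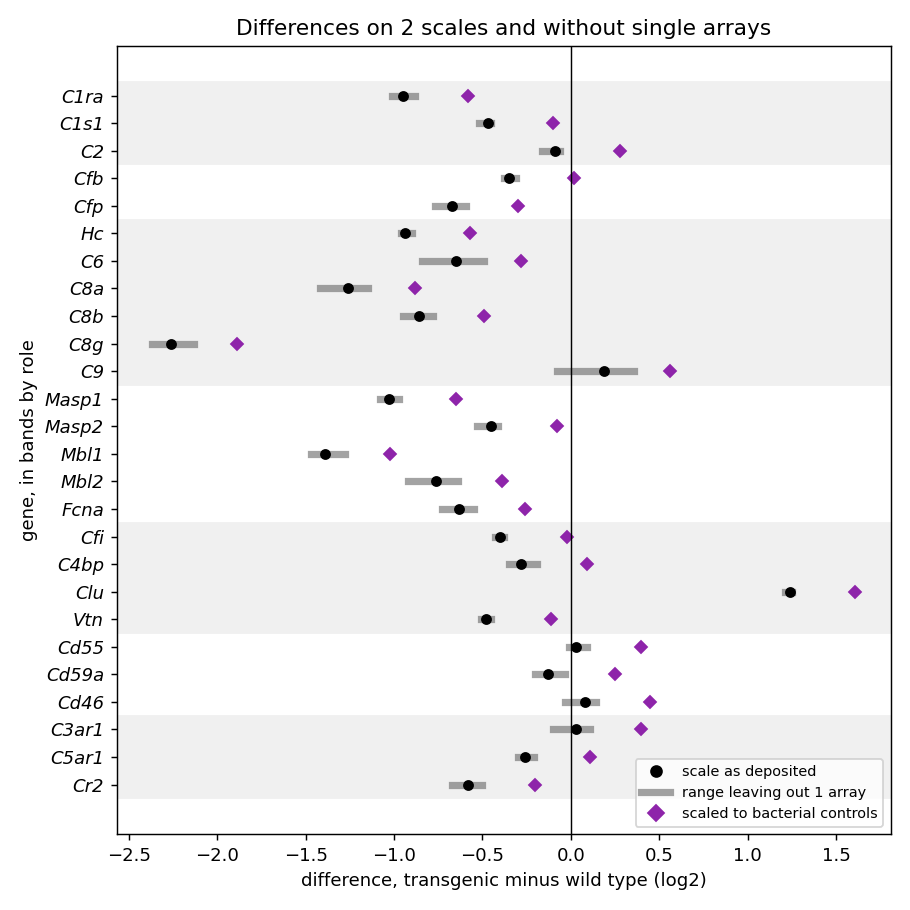
Difference between transgenic and wild-type liver (log2, horizontal axis) of each complement gene on the deposited scale (black point), over fits that leave out 1 array (grey bar) and with arrays scaled to the bacterial hybridisation controls (purple diamond). Every diamond lies to the right of its point, and C8g, Mbl1, C8a, Masp1, C1ra and Hc remain well below 0 on both scales, whereas Cfb and Cfi come to lie near 0.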

How the data were processed

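Total RNA from 6 mouse livers was labelled as biotinylated cRNA for Affymetrix arrays, per the labels' protocols. The authors deposited log2 values, made with affy and RMA per the submitters' processing notes (versions not given in the sources used here). RMA equalises the distributions of arrays, which would hide a shift shared by all transcripts, and the number of arrays limits the precision. Of 22690 probe sets, 20380 name 1 gene, 691 several and 1555 none, and 64 are controls of the array. Entrez identifiers tied 20351 of them to RefSeq (GRCm38.p6) genes, with 0 symbols changed. For a gene with several probe sets, the one with the highest average across the 6 arrays was used. Groups came from the labels.

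The groups were compared gene by gene with limma 3.58.1 (lmFit and eBayes on group alone) under R 4.3.3, and p-values were adjusted by Benjamini-Hochberg over 12393 genes. Figures used Python 3.11.15 and matplotlib 3.10.9. The fit was tested on simulated data.

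Values on every array are given for called members with a difference of at least 0.5 and for the member that differed most in a role group with none. Up to 8 called genes of the other complement and inducer lists are named, and any gene named besides these was chosen after its values were seen. Members and lists were chosen with earlier results of these data known. The alternatives changed the probe set choice, the brightness filter, the normalization or scaling and the variance model, added a replicate block or left out 1 array. Promoters are from RefSeq, and their direction was checked on TATAAA, which was more frequent in the sense direction for genes of both strands.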

Additional observations from a re-analysis of the deposited data

How the results depend on the processing

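Over 17 alternatives the fall of C1ra, Cfp, Hc, C8a, C8b, C8g, Masp1, Mbl1 and Mbl2 and the rise of Clu kept their direction and their call wherever the gene was tested. Scaling to the bacterial controls moved the most, with 7010 genes higher and 651 lower against 2467 and 2523, 7 complement members higher and 9 lower, and 7 other complement genes higher and 4 lower. C2 (0.28), Cfb (0.02), Cd59a (0.25), C5ar1 (0.11) and C4bp (0.09, not called on either scale) then had the opposite sign, and C2, C9, Cd55, Cd59a, Cd46 and C3ar1 were called higher. Without probe sets ending in _x_at, _s_at or _a_at 0 members were higher, because Clu has no other kind. With that choice 13 were lower, C1s1, C8b, C8g, Vtn and Cr2 also having no other kind. Without the 40% dimmest genes 7436 genes were tested, of which 1660 were lower, and 2 other complement genes were higher. Leaving out each array gave 16 to 18 members lower and 1 higher, with 6 to 10 other complement genes lower and 1 higher. The labels number replicates in both groups, but same-numbered arrays did not deviate together (correlations -0.10, -0.02 and 0.06), and with the replicate block 18 members were lower and 1 higher, out of 2168 genes lower and 2111 higher. C4bp was called lower with median centring, quantile normalization again, cyclic loess, trend and robust options, array weights, without the dimmest genes or without wild-type replicate 3. The files hold no detection calls, so whether Cr2, C5ar1 or Cd46 lie above background is unknown.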

Other observations

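C4, which C1s and the lectin proteases cleave to build the C3 convertase, was read by a probe set that names both C4a and C4b and therefore neither gene alone. It read 12.35, 12.17 and 12.40 on the transgenic arrays, against 12.80, 12.94 and 12.94 on the wild-type arrays. The groups did not overlap, and the difference was -0.59 (SE 0.09, adjusted p = 0.00156 by limma over 22626 probe sets). A probe set that names C1rb together with C1ra averaged 7.40 ± 0.19 in transgenic and 8.12 ± 0.07 in wild-type liver (SD, n = 3 each), with a difference of -0.73 (adjusted p = 0.00142).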
